A study of Rattus norvegicus with 6 samples.

Results

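DNA replication and mitosis genes are the genes whose products copy the genome in S phase and then divide it between daughter cells. Here 48 such genes were taken by name, 17 that act in S phase, 30 that act in mitosis and the G1 cyclin Ccnd1. A gene was measured where a non-control probe of the array carried a RefSeq transcript of that rat gene, and the probe with the highest mean signal stood for the gene. This gave 40 measured genes, 16 of S phase, 23 of mitosis and Ccnd1, among 12007 genes tested. Mcm5, Mki67, Top2a, Bub1b, Kif4a, Cenpe, Melk and Ect2 had no probe matched in this way and were not analysed here.

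The samples were renal cortex RNA of 6 male Sprague-Dawley rats, bought at 5 weeks of age, each on a 1-colour Agilent array of its own. In 3 rats 1-amino-2,4-dibromoanthraquinone (ADBAQ), an anthraquinone dye intermediate known as a rodent carcinogen, was given at 1000 mg/kg/day for 4 weeks, and the other 3 rats received corn oil over the same 4 weeks. The labels describe separate animals, numbered 1 to 3 within each group. The question asked here is whether the cortex of treated rats carried more or less RNA of genes for DNA copying and cell division. A level is the log2 processed signal minus the 75th percentile of that array's probes, so 0 is the 75th percentile, and levels of different probes are not compared. A difference is the ADBAQ mean minus the corn oil mean, given ± SE from limma over 3 arrays a group, and a call is a Benjamini-Hochberg adjusted p under 0.05 over all 12007 genes.

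Cells prepare for division by lifting the retinoblastoma family's block on E2F transcription factors, which then switch on replication genes at the end of G1. Mitotic genes peak later, in G2 and M, and many of their promoters are held silent in resting cells by the DREAM complex through a CHR element, often beside CCAAT boxes bound by NF-Y. Tubule cells of the adult kidney divide rarely but can re-enter the cycle after injury, so transcripts of these genes are used to read how many cells are cycling.

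The promoters of the listed genes show this division into S phase and mitosis. RefSeq promoter windows of build GRCr8, 250 bases before to 50 after the start site, were found for 12 S phase and 24 mitosis genes and were searched on both strands. The E2F motif was any of TTTCCCGC, TTTCGCGC, TTTGCCGC and TTTGGCGC, some of which overlap each other on opposite strands. The CHR motif was TTTGAA and the NF-Y box CCAAT, and a match to each can share an end base. An E2F motif lay in 7 of 12 S phase windows (58.3%) and in 1 of 24 mitosis windows, that of Cdk1, against 2.25% of all 27457 windows. A CHR motif together with a CCAAT box lay in 16 of 24 mitosis windows (66.7%) and in 0 of 12 S phase windows, against 7.25% of all windows. A match is a run of letters, not a site shown to be bound.

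**Figure D1:**
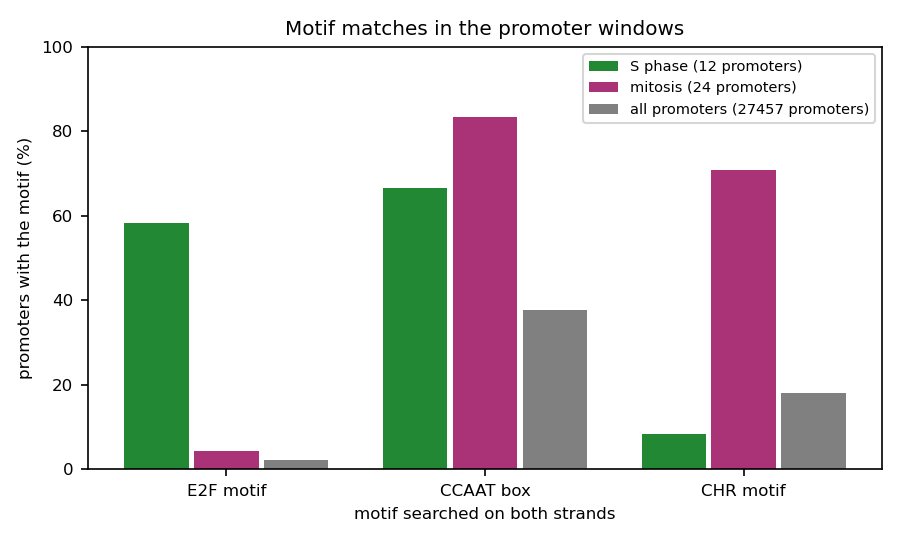
Share of promoter windows (y axis, percent) that hold an E2F motif, a CCAAT box or a CHR motif (x axis), for 12 S phase genes, 24 mitosis genes and all 27457 windows of the RefSeq table. The E2F bar is highest for the S phase genes (58.3%) and the CHR bar for the mitosis genes (70.8%, against 18.1% of all windows).

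The windows of 4 genes are shown to set the 2 kinds of promoter side by side, Mcm6 and Rrm1 for S phase and Cdk1 and Prc1 for mitosis. They were read 5′ to 3′ along the gene, with motif matches in capitals and their places counted from the start site. Mcm6 (chr13:42404303-42404602, minus strand) has overlapping E2F motifs from -139 and -135, read on opposite strands, and CCAAT boxes at -86 and -43. Rrm1 (chr1:166235654-166235953, plus strand) has a CCAAT box at -214 and no match to the E2F or CHR letters used. Cdk1 (chr20:19265043-19265342, plus strand) has CHR motifs at -72 and -16, CCAAT boxes at -210, -81 and -49 and an E2F motif at -133. Prc1 (chr1:143659231-143659530, plus strand) has a CHR motif at -18 and CCAAT boxes at -239 and -50.
Mcm6: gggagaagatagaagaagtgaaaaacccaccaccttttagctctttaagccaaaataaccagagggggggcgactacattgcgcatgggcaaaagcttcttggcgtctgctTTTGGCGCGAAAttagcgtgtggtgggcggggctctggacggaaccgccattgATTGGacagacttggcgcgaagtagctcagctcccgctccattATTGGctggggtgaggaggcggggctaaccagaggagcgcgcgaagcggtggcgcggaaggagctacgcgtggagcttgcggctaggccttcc
Rrm1: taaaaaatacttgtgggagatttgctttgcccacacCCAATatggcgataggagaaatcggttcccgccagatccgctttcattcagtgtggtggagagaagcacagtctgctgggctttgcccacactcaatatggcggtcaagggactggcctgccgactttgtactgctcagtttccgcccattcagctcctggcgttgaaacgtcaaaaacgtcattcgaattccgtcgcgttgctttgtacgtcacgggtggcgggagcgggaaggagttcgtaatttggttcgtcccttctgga
Cdk1: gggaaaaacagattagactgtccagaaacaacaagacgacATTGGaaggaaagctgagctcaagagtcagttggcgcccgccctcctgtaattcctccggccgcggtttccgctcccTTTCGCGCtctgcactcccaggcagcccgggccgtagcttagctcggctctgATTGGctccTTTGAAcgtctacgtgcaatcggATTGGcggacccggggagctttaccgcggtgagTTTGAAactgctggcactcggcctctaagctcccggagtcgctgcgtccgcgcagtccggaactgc
Prc1: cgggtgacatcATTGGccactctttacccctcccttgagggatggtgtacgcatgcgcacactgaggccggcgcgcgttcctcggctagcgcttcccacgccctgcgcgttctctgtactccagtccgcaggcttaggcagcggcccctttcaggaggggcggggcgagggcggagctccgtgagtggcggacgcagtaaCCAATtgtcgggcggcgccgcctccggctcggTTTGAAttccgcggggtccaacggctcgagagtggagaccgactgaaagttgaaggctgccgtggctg

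In the cortex of ADBAQ-treated rats, 0 of the 40 measured genes passed limma's adjusted threshold, where 35 of 12007 genes (0.291%) did. At an unadjusted p under 0.05 there were 3 members, Rrm1 and Pcna with higher and Foxm1 with lower values, against 2333 of all genes (19.4%). The 3 ADBAQ arrays lay wholly above or wholly below the 3 corn oil arrays for 4 members, Rrm1 and Pcna above and Tk1 and Foxm1 below, against 3312 of all genes (27.6%). Each share of members lay below that of all genes tested, which was not tested as a difference, and the members' arrays spread more widely than those of a typical gene.

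Between the groups, differences lay mostly above 0 for S phase genes and mostly below 0 for mitosis genes. Differences were above 0 for 12 of 16 S phase genes and 8 of 23 mitosis genes, against 5728 of all genes (47.7%). The median difference was 0.14 for S phase genes and -0.09 for mitosis genes, against -0.01 for all genes tested. Without scaling between arrays every median moved up by 0.16, to 0.30, 0.08 and 0.15, so the mitosis median changed sign while its distance from all genes stayed at -0.08. Leaving out corn oil rat 2 or ADBAQ rat 1 also brought the mitosis median above 0, to 0.02 and 0.01. All corn oil arrays were on 1 slide and all ADBAQ arrays on another, scanned apart, and treatment cannot be told apart from slide or scan. In bulk cortex, fewer cycling cells and less of these RNAs per cell cannot be told apart either.

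**Figure D2:**
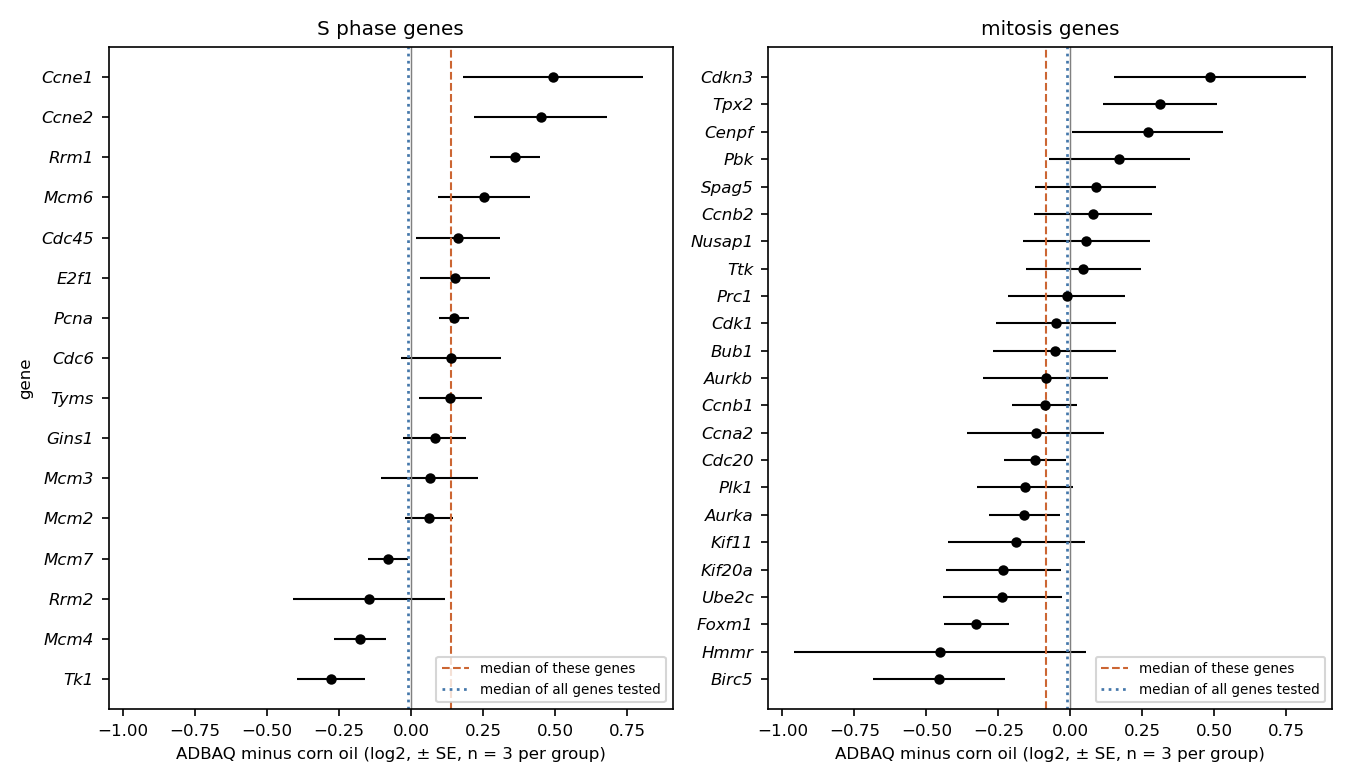
Difference between the ADBAQ and corn oil means (x axis, log2, points ± SE, 3 arrays a group) for each of 16 S phase genes and 23 mitosis genes (y axis, ordered by difference). The dashed line is the median of the panel's genes (0.14 for S phase and -0.09 for mitosis) and the dotted line that of all genes tested (-0.01); the bars of mitosis genes are longer, with a median SE of 0.21 against 0.12.

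Among S phase genes, those of nucleotide supply had differences on both sides of 0. Rrm1, the large subunit of ribonucleotide reductase, which makes deoxynucleotides, was at -1.37, -1.17 and -1.19 in corn oil rats 1 to 3 and at -0.87, -0.78 and -0.99 in ADBAQ rats 1 to 3. Every ADBAQ array lay above every corn oil array, and the difference was 0.36 ± 0.088, a 1.28-fold higher mean that did not pass (adjusted p = 0.14). Rrm2, the small subunit of the same enzyme and the one that varies with the cycle, was at 1.49, 1.60 and 0.83 with corn oil and at 0.84, 1.54 and 1.09 with ADBAQ. Its ADBAQ range lay within the corn oil range (-0.15 ± 0.27, adjusted p = 0.79), with rat 2 highest in each group.

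Thymidine nucleotides are made by thymidylate synthase, Tyms, and salvaged by thymidine kinase, Tk1. Tk1 was at 0.66, 0.86 and 0.65 with corn oil and at 0.26, 0.65 and 0.43 with ADBAQ. ADBAQ rat 2 nearly reached corn oil rat 3, and the difference of -0.28 ± 0.12 did not pass (adjusted p = 0.27). Tyms was at -0.67, -0.34 and -0.55 with corn oil and at -0.48, -0.25 and -0.42 with ADBAQ. These groups overlapped (0.14 ± 0.11, adjusted p = 0.52), and the sign was opposite to that of Tk1.

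The proteins that open and unwind replication origins are Cdc6, which loads the MCM helicase, the MCM subunits Mcm2 to Mcm7, and Cdc45 and Gins1, which complete the active helicase. Mcm6 was at -3.51, -3.03 and -3.18 with corn oil and at -2.93, -2.82 and -3.21 with ADBAQ, a difference of 0.25 ± 0.16 (adjusted p = 0.42). Mcm2 was at -0.94, -0.69 and -0.83 with corn oil and at -0.70, -0.73 and -0.84 with ADBAQ, a difference of 0.06 ± 0.084. Cdc6 was at -5.25, -4.84 and -5.25 with corn oil and at -5.05, -5.18 and -4.68 with ADBAQ, a difference of 0.14 ± 0.17. In all 3 genes the groups overlapped. The differences of the subunits of the MCM ring, which act together, did not share a sign. Mcm3 (0.06), Mcm2 and Mcm6 had differences above 0, and Mcm4 (-0.18) and Mcm7 (-0.08) differences below 0. Cdc45 had a difference of 0.16 ± 0.15 and Gins1 one of 0.08 ± 0.11.

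Pcna, the sliding clamp of the replication forks that also serves in DNA repair, had the narrowest spread of the members. It was at 1.39, 1.43 and 1.42 with corn oil and at 1.53, 1.58 and 1.57 with ADBAQ. The groups did not overlap, and the difference of 0.15 ± 0.051, a 1.11-fold higher mean, did not pass (adjusted p = 0.21). Rrm1 and Pcna passed only without scaling between arrays, with differences of 0.52 and 0.31 and an adjusted p of 0.038 for each. Over the 15 alternatives the adjusted p ran from 0.038 to 0.32 for Rrm1 and from 0.038 to 0.43 for Pcna.

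Entry into S phase is driven by cyclin E with Cdk2 and by E2f1, itself an E2F target. Ccne1 was at -3.43, -2.97 and -4.04 with corn oil and at -3.13, -2.57 and -3.27 with ADBAQ. Ccne2 was at -4.15, -4.46 and -5.07 with corn oil and at -4.07, -4.07 and -4.19 with ADBAQ. Corn oil rat 3 was the lowest array for each cyclin, and the differences, 0.49 ± 0.31 and 0.45 ± 0.23, were the widest above 0 among S phase genes without passing (adjusted p = 0.43 and 0.34). Without corn oil rat 3 they came to 0.21 and 0.20. E2f1 was at -1.45, -1.23 and -1.55 with corn oil and at -1.40, -1.08 and -1.30 with ADBAQ, with overlapping groups (0.15 ± 0.12, adjusted p = 0.53). Ccnd1, cyclin D1, which acts before S phase and answers to growth signals, was at 2.51, 3.03 and 3.23 with corn oil and at 3.17, 3.16 and 3.07 with ADBAQ. Its difference of 0.21 ± 0.19 (adjusted p = 0.57) rested on corn oil rat 1, without which it was 0.001.

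In the mitosis group, Cdk1 is the kinase that starts mitosis, with cyclins A2, B1 and B2 as its partners. Cdk1 was at 0.91, 1.05 and 0.56 with corn oil and at 0.51, 1.17 and 0.70 with ADBAQ. The group means were nearly equal (-0.05 ± 0.21, adjusted p = 0.91), while the rats within a group lay up to 0.66 apart. Ccnb1 was at -2.69, -2.50 and -2.75 with corn oil and at -2.87, -2.55 and -2.80 with ADBAQ (-0.09 ± 0.11). Ccna2 was at -1.14, -0.97 and -1.64 with corn oil and at -1.64, -0.99 and -1.49 with ADBAQ (-0.12 ± 0.24). In these 3 genes rat 2 had the highest level of each group. Ccnb2 had a difference of 0.08 ± 0.20.

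Foxm1, a transcription factor that drives mitotic genes in G2, was at -1.17, -0.99 and -1.28 with corn oil and at -1.61, -1.30 and -1.51 with ADBAQ. Each ADBAQ array lay below each corn oil array, the nearest pair by a narrow margin. The difference was -0.33 ± 0.11, a 1.25-fold lower mean, and did not pass (adjusted p = 0.21). Its value ran from -0.41 to -0.16 over the alternatives.

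The mitotic kinases were measured as Plk1, which acts from entry to exit, Aurka, which matures spindle poles, and Aurkb, the kinase of the chromosomal passenger complex. Plk1 was at -0.27, -0.05 and -0.48 with corn oil and at -0.69, -0.19 and -0.38 with ADBAQ (-0.16 ± 0.17). Aurkb was at -4.91, -5.01 and -5.70 with corn oil and at -5.32, -5.38 and -5.17 with ADBAQ (-0.09 ± 0.22). Aurka had a difference of -0.16 ± 0.12, and all 3 kinases had overlapping groups. Birc5 (survivin), the partner of Aurkb in that complex, was at -0.66, -0.62 and -0.76 with corn oil and at -1.60, -0.67 and -1.14 with ADBAQ. ADBAQ rat 2 lay within the corn oil range and ADBAQ rats 1 and 3 below it. The difference of -0.46 ± 0.23 did not pass (adjusted p = 0.33) and came to -0.23 without ADBAQ rat 1.

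The spindle checkpoint holds anaphase until chromosomes are attached, through Bub1 and Ttk (Mps1), and its target is Cdc20, which with the ubiquitin conjugase Ube2c works on the anaphase-promoting complex. Bub1 was at -2.14, -1.78 and -2.32 with corn oil and at -2.40, -1.75 and -2.25 with ADBAQ (-0.05 ± 0.21). Cdc20 was at -0.25, -0.09 and -0.33 with corn oil and at -0.53, -0.24 and -0.28 with ADBAQ (-0.12 ± 0.11). Ube2c was at -2.15, -1.89 and -2.26 with corn oil and at -2.71, -1.96 and -2.35 with ADBAQ (-0.24 ± 0.21). The groups overlapped in all 3, again with rat 2 highest in each group. Ttk had a difference of 0.04 ± 0.20, and the smallest adjusted p among Bub1, Cdc20, Ube2c and Ttk was 0.56.

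The spindle and midzone genes had differences on both sides of 0. Tpx2, which activates Aurka on spindle microtubules, was at -3.41, -2.98 and -3.37 with corn oil and at -3.30, -2.67 and -2.86 with ADBAQ (0.31 ± 0.20, adjusted p = 0.43). Prc1, which bundles midzone microtubules, was at -1.65, -1.40 and -1.90 with corn oil and at -1.96, -1.31 and -1.71 with ADBAQ. Its difference was -0.01 ± 0.20, so that the groups nearly coincided while the rats within them did not. The motor Kif20a had a difference of -0.23 ± 0.20, the motor Kif11 one of -0.19 ± 0.24 and the kinetochore protein Cenpf one of 0.27 ± 0.26. Nusap1, Spag5 and Pbk had differences of 0.05, 0.09 and 0.17, each smaller than its SE of 0.22, 0.21 and 0.24.

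The remaining mitosis genes each had a single array far from the rest. Cdkn3, a phosphatase that acts on Cdk proteins, was at -4.08, -3.79 and -4.00 with corn oil and at -3.87, -3.85 and -2.69 with ADBAQ. Only ADBAQ rat 3 stood above the corn oil range by more than 1 log2 unit, and without it the difference of 0.49 ± 0.33 came to 0.10. Hmmr, a spindle-associated hyaluronan receptor, was at -5.47, -5.63 and -5.28 with corn oil and at -5.19, -5.44 and -7.11 with ADBAQ. It was well above background on 3 of 3 corn oil arrays and on 1 of 3 ADBAQ arrays, so its difference of -0.45 ± 0.51 (adjusted p = 0.66), which became 0.14 without ADBAQ rat 3, rests on signals near background. The other 39 measured members were well above background on all 6 arrays.

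**Figure D3:**
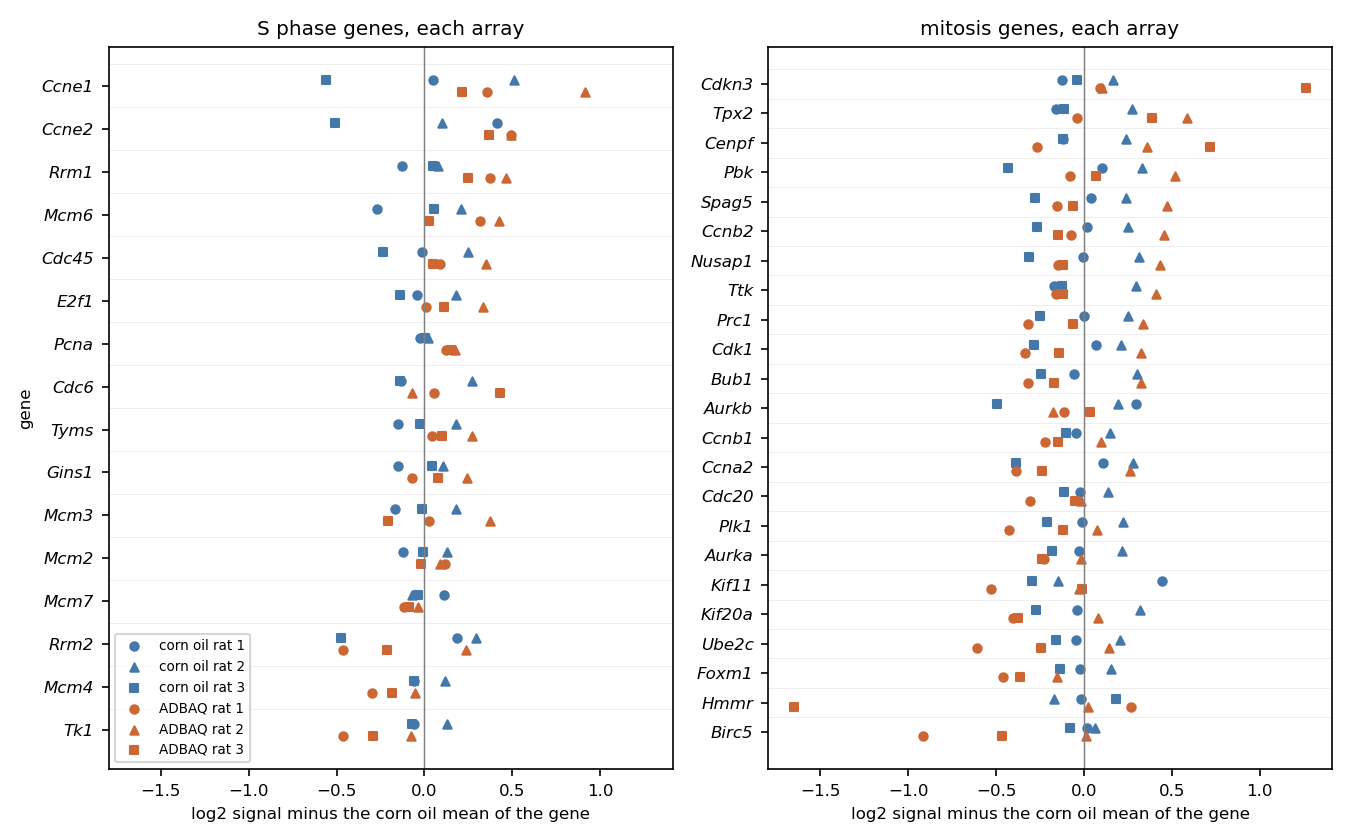
Level of each gene on each array minus the gene's corn oil mean (x axis, log2), for 16 S phase genes and 23 mitosis genes (y axis, ordered as in the plot of differences). Colours mark the group and shapes the rat; triangles, rat 2 of each group, lie to the right in most mitosis genes, and the single ADBAQ arrays of Cdkn3 and Hmmr stand apart.

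Seen rat by rat, the mitosis genes moved together between animals of the same group. Rat 2 was the highest of its group for 20 of 23 mitosis genes with corn oil and for 18 of 23 with ADBAQ. Over all 12007 genes tested it was the highest for 4090 with corn oil and 4097 with ADBAQ. ADBAQ rat 2 lay above ADBAQ rat 1 in 21 of 23 mitosis genes, with a median gap of 0.57, and in 13 of 16 S phase genes, with a median gap of 0.24. The same held for 6820 of all genes (56.8%), with a median gap of 0.02. Corn oil rat 2 lay above corn oil rat 3 in 22 of 23 mitosis genes (median gap 0.42) and 15 of 16 S phase genes (0.19), against 6159 of all genes (51.3%). The rats and the direction of these comparisons were chosen after the values were seen, so the counts describe these 6 animals and carry no test.

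The order of rats 2, 1 and 3 with corn oil and 2, 3 and 1 with ADBAQ, from high to low, was met in full by 14 of 23 mitosis genes. These were Cdk1, Ccnb1, Ccna2, Bub1, Plk1, Cdc20, Birc5, Ube2c, Nusap1, Kif20a, Prc1, Pbk, Spag5 and Foxm1. Among S phase genes 3 of 16 met it, Rrm2, Tk1 and E2f1, and over all genes tested 348 did (2.90%). The labels do not tie the replicate numbers to a shared litter or batch, so what rat 2 of each group has in common beyond its number is not known. Over all genes tested, deviations from the group mean correlated at 0.16 between these rats, the highest of any pair across the groups. Corn oil rat 3 and ADBAQ rat 1 came next, at 0.13.

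As a median over the list, mitosis genes stood at -0.01, 0.22 and -0.21 in corn oil rats 1 to 3 and at -0.27, 0.14 and -0.12 in ADBAQ rats 1 to 3, on the log2 scale relative to each gene's corn oil mean. The gap between corn oil rats 2 and 3, like that between ADBAQ rats 2 and 1, was wider than the median difference between the groups. S phase genes stood at -0.06, 0.15 and -0.05 with corn oil and at 0.05, 0.26 and 0.06 with ADBAQ. Their median was higher in each ADBAQ rat than in corn oil rats 1 and 3, and corn oil rat 2 lay above ADBAQ rats 1 and 3. Over all genes tested the array medians lay between -0.02 and 0.00.

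**Figure D4:**
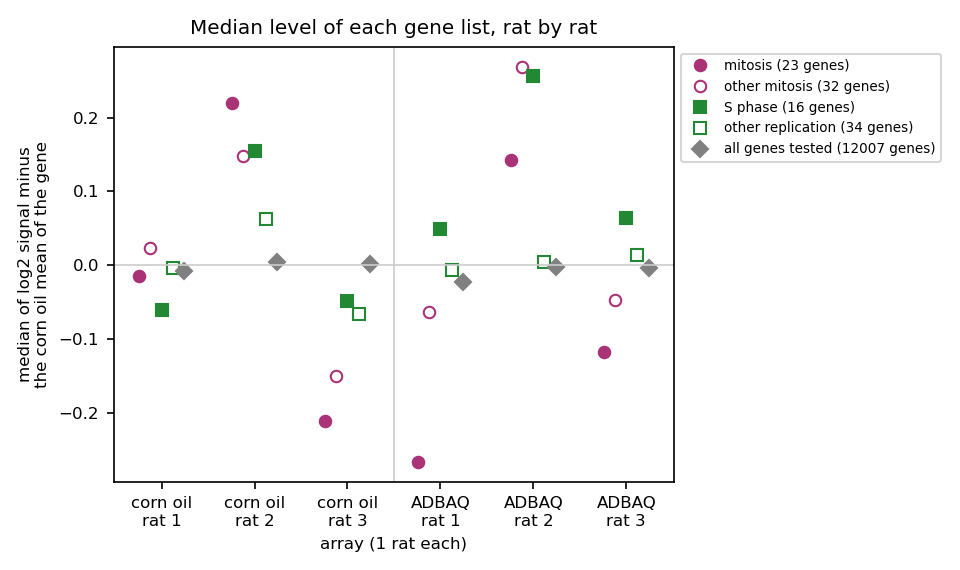
Median over each gene list of the log2 level minus the gene's corn oil mean (y axis) on each of 6 arrays (x axis), for 23 mitosis, 32 other mitosis, 16 S phase, 34 other replication and all 12007 genes. Rat 2 is the highest of its group for the mitosis and S phase lists, while all genes tested stay between -0.02 and 0.00.

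The spread between arrays, 1 a rat, limited the precision of the mitosis values. With 1 array a rat, variation of the animal and of its array cannot be told apart. The median SE of a difference was 0.21 for mitosis genes and 0.12 for S phase genes, against 0.09 for all genes tested. The median range within a group was 0.46 with corn oil and 0.60 with ADBAQ for mitosis genes, 0.32 and 0.31 for S phase genes, and 0.21 and 0.19 for all genes. A mitosis gene would therefore need a wider difference than a typical gene to pass, and with 3 arrays a group the number of animals limits the precision.

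Other probes of the same genes showed the same animals high and low. Beside the chosen probes, 15 tested probes of mitosis genes and 18 of S phase genes gave further readings of the same RNA. ADBAQ rat 2 was above ADBAQ rat 1 on 15 of 15 and 17 of 18 of them, and corn oil rat 2 above corn oil rat 3 on 14 of 15 and 14 of 18. For the difference between groups, all probes of a gene had the same sign in 9 of 10 S phase genes with several tested probes, Rrm2 being the exception, and in 4 of 10 mitosis genes. The mitosis genes whose probes disagreed in sign were Bub1, Ccna2, Cenpf, Kif11, Prc1 and Ttk.

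For the members nearest to a call, the other probes were as follows. The other Pcna probe had a difference of 0.25 ± 0.060 (adjusted p = 0.14 over all tested probes), and those of Rrm1 had 0.35 ± 0.083 and 0.29 ± 0.17 (adjusted p = 0.14 and 0.40). The other Foxm1 probe had -0.31 ± 0.15 (adjusted p = 0.33), close to the chosen probe, and the other Tk1 probe -0.03 ± 0.13 (adjusted p = 0.91), far nearer 0 than the chosen one. A dimmer Ccne2 probe was well above background on 3 of 3 ADBAQ arrays and not on any corn oil array. Its bound was 1.41-fold higher with ADBAQ. A dimmer Ttk probe was the reverse, with a bound of 1.40-fold lower with ADBAQ. These bounds set the brighter group's mean against the lowest signal well above background on each array, or the probe's own signal where that was higher. They carry no error, and for Ccne2 the bound is the measured ratio. Each of these probes entered the test only through its brighter group, so neither value is support for a difference. Both probes are among those counted for sign above.

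The promoter motifs were also set against the order of the animals. Among genes tested whose window holds both CHR and CCAAT, 302 of 511 (59.1%) were higher in ADBAQ rat 2 than in rat 1, with a median gap of 0.04, against 5574 of 9806 genes with any window (56.8%). Corn oil rat 2 was above corn oil rat 3 in 263 of those 511 genes (51.5%), against 5003 of 9806 (51.0%). Of the 359 genes tested with an E2F motif, 219 (61.0%) were higher in ADBAQ rat 2 than in rat 1 and 215 (59.9%) higher in corn oil rat 2 than in rat 3. These shares carry no test. The 12 mitosis genes with that combination had ADBAQ rat 2 above rat 1 in 11 and a median gap of 0.57, and the 5 mitosis genes with no CHR match had it in 5, with a median gap of 0.49. Among S phase genes the median difference between groups was 0.07 for the 6 with an E2F motif and 0.16 for the 5 without, and it was 0.00 for all genes tested with that motif.

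Other genes of replication and mitosis, taken as wider lists, held no gene past the threshold either. Of 34 other replication genes (polymerases, clamp loaders, origin and flap-processing factors), 0 passed, against 0.291% of all genes. An unadjusted p under 0.05 was found with a higher value in 1 and with a lower value in 4, against 19.4% of all genes in either direction, and the median difference was 0.00. Mcm10, which helps fire the helicase, was at -3.97, -4.58 and -4.52 with corn oil and at -5.46, -5.35 and -5.19 with ADBAQ. Its ADBAQ levels lay near the lowest signal well above background on those arrays, at -6.12, -5.78 and -5.90. Its difference of -0.97 ± 0.18 had an adjusted p of 0.096, which ran from 0.049 without scaling to 0.26 over the alternatives, and with normexp background correction the difference was -0.36. Fen1, the flap endonuclease of lagging-strand synthesis, had -0.23 ± 0.071 (adjusted p = 0.18). ADBAQ rat 2 lay above ADBAQ rat 1 in 19 of 34 of these genes, close to the 56.8% of all genes, and corn oil rat 2 above corn oil rat 3 in 27 of 34.

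Of 32 other mitosis genes (kinetochore, condensin, midzone and checkpoint factors), 0 passed and 2 in each direction had an unadjusted p under 0.05, against the same 0.291% and 19.4% of all genes, with a median difference of -0.02. Cdc25b, the phosphatase that releases Cdk1 from inhibition before mitosis, was at -0.68, -0.68 and -0.75 with corn oil and at 0.04, 0.29 and 0.46 with ADBAQ. Each ADBAQ array lay above each corn oil array, and the difference of 0.97 ± 0.12 narrowly missed the threshold (adjusted p = 0.055). It passed under 5 of 15 alternatives, with an adjusted p from 0.022 to 0.21. The condensin subunit Smc4 had 0.23 ± 0.074 (adjusted p = 0.19). These genes showed the animals as the members did, with ADBAQ rat 2 above ADBAQ rat 1 in 28 of 32 (median gap 0.30) and corn oil rat 2 above corn oil rat 3 in 29 of 32 (0.29).

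The G1 and E2F regulators and the cell cycle inhibitors also gave no call. Of 17 G1 and E2F regulators 0 passed, against 0.291% of all genes. In this list 1 gene had an unadjusted p under 0.05 by limma and 3 had groups that did not overlap, all higher. Over all genes tested these shares were 19.4% and 27.6% in either direction. E2f6, a repressor of the E2F family, had 0.34 ± 0.076 (adjusted p = 0.12), and Rb1, the retinoblastoma protein, had 0.11 ± 0.051 (adjusted p = 0.30). Of 15 cell cycle inhibitors 0 passed and 3 had an unadjusted p under 0.05, all with higher values, with a list median of 0.08, where 19.4% of all genes had such a p. Ccng2, an atypical cyclin linked to arrest, was at 0.06, -0.41 and -0.09 with corn oil and at 0.44, 0.38 and 0.34 with ADBAQ (0.54 ± 0.12, adjusted p = 0.13). Gadd45a, a growth arrest gene of the stress response, had 0.24 ± 0.057 (adjusted p = 0.13), and its groups did not overlap.

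The labelled tissue was checked by its markers. All 6 proximal tubule markers were well above background, with a summed level, in multiples of the 75th percentile, of 1071 to 1097 with corn oil and 971 to 1032 with ADBAQ. A summed level rests most on the brightest probes of its list, so it can move against the list's median difference. None of the 6 passed, against 0.291% of all genes. Lrp2, Slc22a6 and Aqp1 had lower values at an unadjusted p under 0.05 by limma, against 19.4% of all genes in either direction. Markers of the medulla (4 of 4) and of the collecting duct (3 of 3) were measured too, and 0 of either list passed. The medulla sum was 19.3 to 21.3 with corn oil and 15.2 to 16.2 with ADBAQ, although 3 of 4 differences were above 0, with a median of 0.21. Aqp4 and Slc14a2 did not overlap and were higher with ADBAQ, and Krt7 did not overlap and was lower. Over all genes tested, 27.6% did not overlap in either direction. The collecting duct sum was 113 to 158 with corn oil and 124 to 131 with ADBAQ. Slc4a1 and Atp6v1b1 did not overlap and were higher, against the same 27.6% of all genes. Slc4a1 is also a gene of the red cell membrane, so it does not read the collecting duct alone. The source of its RNA was not tested. Cells that might bring dividing cells with them were read from their own markers. Of 8 lymphocyte markers tested from a list of 10, 0 passed, and their summed level was 2.16 to 2.69 with corn oil and 2.14 to 2.52 with ADBAQ. Of 7 macrophage and granulocyte markers tested from a list of 8, 0 passed and all had differences above 0, against 47.7% of all genes. An unadjusted p under 0.05 by limma was found in 2 and no overlap in 2, all higher, against 19.4% and 27.6% in either direction. Their sum was 75.7 to 89.5 with corn oil and 89.2 to 100.3 with ADBAQ. Of 7 red cell and precursor markers tested from a list of 10, Alas2, Hbb and Hemgn passed, all higher, against 0.291% of all genes. The sum over the 7 was 461 to 516 with corn oil and 791 to 922 with ADBAQ. Of 8 injured tubule markers 0 passed and all had differences above 0, against the same 47.7%. In this list 1 had an unadjusted p under 0.05 by limma and 2 had no overlap, all higher, against the same 19.4% and 27.6%. Their sum was 34.7 to 44.6 with corn oil and 47.6 to 53.8 with ADBAQ. All markers tested were well above background on all 6 arrays, except Itgam, a myeloid integrin, on 1 of 3 corn oil arrays. Their part in the S phase and mitosis values was not tested.

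The order of animals in the mitosis genes was shared by few of these markers. Of 3 fibroblast markers, ADBAQ rat 2 was highest in 3 and corn oil rat 2 in 2. Their summed level was 6.14, 7.78 and 6.41 with corn oil and 5.27, 6.34 and 5.17 with ADBAQ. Past the threshold were 0 of 3, against 0.291% of all genes. All 3 differences were below 0, as were 6279 of 12007 over all genes. An unadjusted p under 0.05 by limma was found in 1 and no overlap in 1, both lower. Over all genes these shares were 19.4% and 27.6% in either direction. Col1a1, a fibroblast collagen, alone met the full order of the mitosis genes. Red cell markers were lowest in ADBAQ rat 1 in 6 of 7, lymphocyte markers in 6 of 8 and injured tubule markers in 4 of 8, while ADBAQ rat 2 was highest in 2, 2 and 1 of them. Of all 12007 genes tested, ADBAQ rat 1 was lowest of its group in 4876 and ADBAQ rat 2 highest in 4097. Endothelial markers had ADBAQ rat 2 highest in 2 of 3 and podocyte markers in 0 of 3. Of 4 medulla markers, corn oil rat 2 was highest in 3 and ADBAQ rat 2 in 1. Their array medians, relative to the corn oil mean, followed the order, though 0 of 4 met it singly. They were -0.01, 0.17 and -0.06 with corn oil and 0.15, 0.25 and 0.23 with ADBAQ. Of 7 macrophage and granulocyte markers, corn oil rat 2 was highest in 4 and ADBAQ rat 2 in 1. The part of fibroblasts or other cells in the order of the animals was not tested.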

How the data were processed

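Renal cortex RNA of 6 rats was labelled with Cy3 and hybridised to 1-colour Agilent arrays, 1 rat an array. The deposited scanner files hold intensity values and spot flags made with Agilent Feature Extraction 10.7.1.1, per the file headers (10.7 in the submitters' processing notes), whose processed signal is background-subtracted and not normalized between arrays. The deposited value table holds a ratio, the processed signal over 1 constant an array near its 75th percentile, and was used as an alternative only. Its scale and direction were read by setting it against the scanner values.

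Control spots and 73 probes with an outlier flag on any array were left out of 61657 non-control probes. The log2 processed signal minus each array's 75th percentile was tested with limma 3.58.1 in R 4.3.3 (lmFit, eBayes, two-sided, Benjamini-Hochberg, threshold 0.05), ADBAQ against corn oil, on probes that every array of 1 group or the other flagged as well above background. Of the probes, 44.5% matched 1 gene through RefSeq accessions, giving 15284 genes, of which 12007 were tested with 1 probe each, that of highest mean signal. The 75th percentile lay between 1126 and 1307 signal units and the share of probes above background between 69.0% and 72.3%. Promoter sequences came from RefSeq's table for GRCr8, 1 window a gene, the first listed where there were several (among the members only Cdkn3), so motif counts depend on the start sites taken; the array headers name an older build, so no array coordinates are given. The limma step was tested on simulated data. Python 3.11.15, pandas 2.3.3 and matplotlib 3.10.9 made the tables and figures.

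The members and gene lists were chosen with earlier results of these data known. Values are given in full for members with an unadjusted p under 0.05, the 5 largest differences in each direction, members above background in only part of a group, a fixed set of well-known cycle genes, and, of each wider list, up to 2 genes with the smallest p. Prc1 and the genes counted by rat order were added to these after their values were seen. The alternatives were no scaling, quantile normalization, normexp with an offset of 50 on the median signals (the files hold no mean signal), no or a stricter detection filter, the mean of all tested probes, robust variances with an intensity trend, the replicate number as a block, the deposited value table, and each array left out. With 3 arrays a group, an exact permutation test of a single value cannot go below p = 0.10.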

Additional observations from a re-analysis of the deposited data

How the results depend on the processing

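The count of 0 members past limma's threshold held under the alternatives run except without scaling, where 2 members, Rrm1 and Pcna, passed. Without scaling the S phase median became 0.30, and genes past the threshold over all genes tested came to 1081 (1027 higher and 54 lower, against 27 and 8). They came to 145 with normexp (67 higher and 78 lower), to 156 with robust variances that follow an intensity trend (72 and 84), to 0 with the replicate block (2266 genes at an unadjusted p under 0.05), and to between 14 and 35 when each array was left out. The lowest counts were 14 without corn oil rat 1 and 15 without ADBAQ rat 2, and they were 22 without corn oil rat 2 and 22 without corn oil rat 3. With the replicate block 7 members had an unadjusted p under 0.05, and it changed no call of a member. Same-numbered rats did not deviate together in all 3 cases (correlations over genes of 0.0094, 0.16 and 0.035), and corn oil rat 3 correlated best with ADBAQ rat 1 (0.13), so the numbers were not taken as pairs.

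The medians ran, over the arrays left out in turn, from 0.07 to 0.19 for S phase genes and from -0.19 to 0.02 for mitosis genes. Relative to all genes tested they ran, over all alternatives, from 0.07 to 0.20 and from -0.18 to 0.02.

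No member was called, and the sign of its difference changed under some alternative for 21 of 40 members and under none for 19. Without scaling the differences that turned above 0 were those of Mcm7 (0.084), Rrm2 (0.017), Cdk1 (0.11), Ccnb1 (0.073), Ccna2 (0.042), Bub1 (0.11), Aurka (0.0027), Aurkb (0.076), Plk1 (0.0053), Cdc20 (0.039) and Prc1 (0.15), by construction, since every value then moves up by 0.16. With normexp Cdc6 (-0.052), Mcm3 (-0.13) and Prc1 (0.088) changed sign, and with the mean of all probes Rrm2 (0.019), Bub1 (0.012), Cenpf (-0.022), Ttk (-0.21) and Prc1 (0.11) did; the cause was not tested. With single arrays left out the differences ran from -0.091 to 0.20 for Mcm3, from -0.33 to 0.063 for Aurkb, from -0.34 to 0.033 for Kif11, from -0.14 to 0.19 for Ttk, from -0.38 to 0.013 for Rrm2, from -0.24 to 0.093 for Cdk1, from -0.31 to 0.018 for Ccna2, from -0.24 to 0.10 for Bub1, from -0.19 to 0.14 for Prc1, from -0.11 to 0.20 for Ccnb2, from -0.13 to 0.21 for Nusap1, from -0.047 to 0.34 for Pbk, from -0.11 to 0.21 for Spag5, from -0.0078 to 0.28 for Cdc6 and from -0.82 to 0.14 for Hmmr. Cdc25b, no member, passed under 5 of 15 alternatives. Signal limits Hmmr, whose ADBAQ signals are near background.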

Other observations

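Incenp, the scaffold of the chromosomal passenger complex and no member, had the widest difference of the 32 other mitosis genes, -1.63 ± 0.55, with an unadjusted p of 0.025 and an adjusted p of 0.20 by limma. It was at 2.18, 1.02 and 1.73 in corn oil rats 1 to 3 and at 0.41, 0.72 and -1.11 in ADBAQ rats 1 to 3, so the groups did not overlap while the rats within each group lay more than 1 log2 unit apart. It was named after its values were seen. Gmnn, the geminin inhibitor of origin licensing, had the only higher value at an unadjusted p under 0.05 among the other replication genes, at -3.04, -2.87 and -3.20 with corn oil and at -2.80, -2.70 and -2.77 with ADBAQ (0.28 ± 0.097, adjusted p = 0.21), and was likewise named after its values were seen.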
